A study of Mus musculus with 47 samples.

Results

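Toll-like receptors are the membrane sensors with which macrophages recognise microbial molecules, and Cd14 is the surface protein that hands bacterial lipopolysaccharide (LPS) to one of them. The 10 genes described here were chosen by symbol, namely Tlr1, Tlr2, Tlr3, Tlr4, Tlr6, Tlr7, Tlr8, Tlr9, Tlr13 and Cd14. All 10 had a row among the 51912 genes of the primary macrophage tables, and all 10 had one in each of the 4 Raw264.7 tables, which list between 12771 and 23772 genes. Their transcripts were followed through 12 RNA-seq libraries of a study on ZMYND8, a chromatin reader of histone acetylation, in mouse macrophages.

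Of the libraries 6 came from bone-marrow-derived macrophages (BMDMs) of C57BL/6 mice, grown for 5 days in 20 ng/ml M-CSF. The Zmynd8 cKO mice carried floxed Zmynd8 together with Lyz2-Cre, a Cre that is driven by the lysozyme gene of myeloid cells, and by the study's methods the WT mice were Zmynd8 fl/fl littermates. Cells were left untreated (NT, labelled M0) or were given 100 ng/ml LPS (M1) or 20 ng/ml IL-4 (M2) for 6 h. RNA of 3 biological replicates was mixed before each BMDM library was made, so that every condition is 1 library, and the WT controls were matched to the cKO mice for age and sex, neither of which is given in the sources used here. The other 6 libraries were labelled Raw264.7, a mouse macrophage line. In 3 of them Zmynd8 had been knocked out by lentiviral CRISPR, and the cells carried no rescue, WT Zmynd8, or a D/E-A mutant of Zmynd8. The labels of these 3 give no treatment, the study's text describes the RNA-seq of the WT Zmynd8 and D/E-A lines as made after LPS, and for the line with no rescue none was found. In the other 3, p65 (Rela, an NF-κB subunit) had been knocked out in the same way and the cells carried no rescue, WT p65, or p65 with the K122R substitution, all after LPS. Whether a line was 1 clone is not given.

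The family is divided over the cell surface and the endosome. Tlr1, Tlr2 and Tlr6 sit on the cell surface, where Tlr2 pairs with Tlr1 or Tlr6 to bind bacterial lipopeptides, and Tlr4 with Ly96 and Cd14 forms the LPS receptor. Tlr3, Tlr7, Tlr8, Tlr9 and Tlr13 work in endosomes, where Tlr3 binds double-stranded RNA, Tlr7 single-stranded RNA, Tlr9 CpG DNA and Tlr13 bacterial ribosomal RNA, and they need the chaperone Unc93b1 to get there. All of them signal through Myd88 except Tlr3, which uses Ticam1, and Tlr4 uses both.

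The genes are spread over 7 chromosomes of the mouse mm10 (GRCm38) assembly, and 2 pairs are neighbours. Tlr1 (chr5:64924680-64933589, minus strand) lies 18.4 kb from Tlr6 (chr5:64952030-64971140, minus strand), and Tlr8 (chrX:167241123-167264329, minus strand) lies 40.6 kb from Tlr7 (chrX:167304926-167330574, minus strand). Tlr13 (chrX:106143275-106160493, plus strand) is also X-linked. Tlr2 is at chr3:83836272-83841824 (minus strand), Tlr3 at chr8:45395665-45411949 (minus strand), Tlr4 at chr4:66827551-66846581 (plus strand), Tlr9 at chr9:106222598-106226876 (plus strand) and Cd14 at chr18:36725064-36726815 (minus strand). The longest annotated transcripts (GENCODE M21) have 2 exons in Tlr6, Tlr9 and Cd14, 3 in Tlr2, Tlr4, Tlr8 and Tlr13, 4 in Tlr1, 5 in Tlr7 and 7 in Tlr3.

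Tlr1 and Tlr6 can share reads with each other, since 13.6% of the distinct 50-base stretches of Tlr1 transcripts also occur in Tlr6 and 12.3% of those of Tlr6 in Tlr1. Their deposited counts carry decimals (1604.15 for Tlr1 and 598.86 for Tlr6 in the untreated WT library), so values of this pair are less certain than those of the others. Tlr3 is overlapped by the antisense gene Gm45542, which holds 5.30% of its stretches and had 0 counts in all 6 BMDM libraries. Whether counting used the strand is not given.

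Several facts about the libraries bear on what follows. The BMDM libraries held between 22597408 and 28386612 counts and the Raw264.7 libraries between 15127110 and 21042628 reads, so every member was well covered in BMDMs, with 154 counts at the lowest. With 1 library per condition, no comparison of a single library with another has a replicate check or a test. The 6 BMDM libraries together do allow one, a fit of genotype plus treatment with 2 residual degrees of freedom, tested with edgeR's quasi-likelihood test over 13074 genes. It was chosen after the values were seen, and it takes the effect of the genotype as the same under every treatment and that of a treatment as the same in both genotypes, so that any departure from this counts as error. Between single libraries a difference is described as higher or lower when it reached 1.2-fold, the fold of the study's methods, on log2(CPM + 1), CPM (and RPM for reads) being a count scaled to the library total in the usual way, in genes averaging 10 counts or more, and the limits given are 95% exact Clopper-Pearson limits on the ratio of reads, which cover counting error only and include neither the differences between mice nor those of library preparation. Gene-level Zmynd8 did not reach the fold in cKO against WT under any treatment. It stood at 87.1 and 81.5 CPM in untreated WT and cKO cells, at 79.0 and 86.8 in LPS-treated ones and at 128 and 151 with IL-4. The floxed part is only some of the gene's exons, so these values do not check the genotype.

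In BMDMs the 5 macrophage markers with a row (Csf1r, Adgre1, Cd68, Fcgr1 and Mertk) were all present and summed to 5654 to 8701 CPM. B cell markers summed to at most 0.555 CPM and T cell markers to between 3.94 and 29.1 CPM, and dendritic cell markers to between 308 and 1453 CPM. A single gene carries each of the last sums. Cd3d had 0 counts in all 6 libraries and Cd3e at most 1, so the T cell sum is that of Cd4. Bst2, which is also an interferon-induced gene, held between 307 and 1445 CPM of the dendritic cell sums, whereas Xcr1, Zbtb46, Flt3 and Siglech held at most 8.58, 3.14, 0.919 and 0.247 CPM. Neutrophil granule genes (S100a8, S100a9, Camp, Ngp and Ltf) summed to 2.29 to 4.18 CPM in the untreated and LPS libraries but to 352 and 474 CPM in the WT and cKO IL-4 libraries. The titles of the IL-4 libraries carry the sample numbers 62 and 63 and those of the others 91 to 94, and whether the libraries were sequenced together is not given.

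The 3 libraries of the Zmynd8 lines stood apart from those of the p65 lines although all 6 carry the same line's name. They held 4295.3 to 10125 RPM over the 5 neutrophil genes and 7109 to 8467 Xist reads, whereas the p65 lines held at most 0.319 RPM over the 3 neutrophil genes listed there and at most 3 Xist reads. Zmynd8 itself had 121 reads in the KO library, 485 with WT Zmynd8 and 497 with D/E-A. Rela had 765 reads in the p65 KO library, 1601 with WT p65 and 5850 with K122R, and the column of the WT p65 library is headed only as WT after LPS. Lines are thus compared with each other only within each set of 3, for the libraries as labelled.

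**Figure D1:**
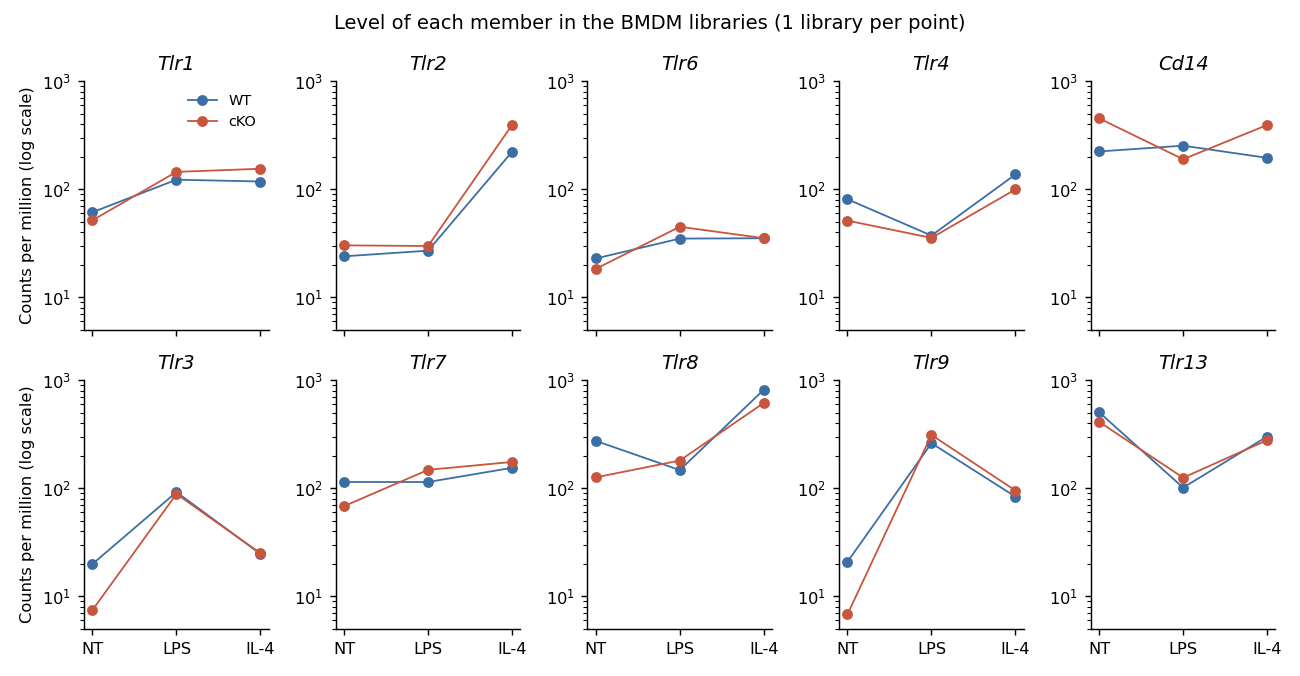
Level of each of the 10 genes in CPM (log axis) in untreated (NT), LPS-treated and IL-4-treated BMDMs, each point being 1 library of mixed RNA (blue, WT; red, Zmynd8 cKO). Tlr9 spans from 6.81 to 311 and Tlr2 from 23.9 to 393, while Cd14 stays between 189 and 452.

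Levels of different genes were compared per transcript length, as transcript-per-length values (TPM) as deposited. Cd14 had the highest TPM of the 10 genes in 5 of the 6 BMDM libraries, at 237 and 401 TPM in untreated WT and cKO cells, 255 and 203 in LPS-treated ones and 211 and 416 with IL-4. The exception was the IL-4-treated WT library, where Tlr8 reached 326 TPM. In untreated WT cells Tlr13 followed with 184 TPM and Tlr8 with 103, and the other receptors lay between 9 TPM (Tlr9) and 47.9 TPM (Tlr7). Tlr3 and Tlr9 were the lowest in both untreated libraries, at 9.11 and 9 TPM in WT and 2.65 and 2.46 TPM in cKO, with Tlr9 last in both. After LPS, Tlr9 came second behind Cd14 in both genotypes, at 107 TPM in WT and 135 in cKO, and Tlr4 and Tlr2 were the lowest, at 14.6 and 12.9 TPM in WT and 15.3 and 15.2 in cKO. Treatment with IL-4 put Tlr3 last, at 11.99 and 10.7 TPM.

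**Figure D2:**
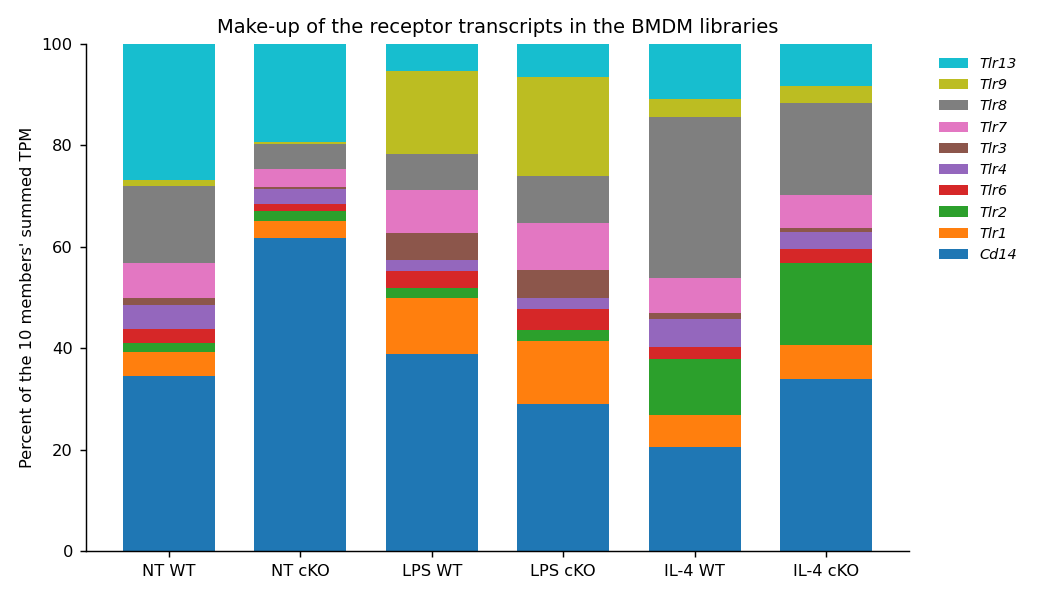
Share of each gene in the summed TPM of the 10 genes, as stacked bars that add up to 100 percent, for the 6 BMDM libraries. Cd14 made up 34.6% of the sum in untreated WT and 61.7% in untreated cKO cells, Tlr9 16.3% and 19.4% after LPS in WT and cKO, and Tlr8 31.8% after IL-4 in WT.

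The 10 genes thus differed widely in how much they moved over the 6 libraries. On CPM + 1, the highest library exceeded the lowest 39.9-fold for Tlr9, 15.8-fold for Tlr2 and 10.98-fold for Tlr3, spans above those of 98.2%, 95.1% and 92.2% of the 9933 genes that averaged 100 counts or more. Tlr6, Cd14 and Tlr7 spanned 2.38-fold, 2.38-fold and 2.54-fold, below the median span of 2.88-fold over those genes.

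What LPS did to the receptors was asked first in WT cells, and the endosomal receptors for DNA and double-stranded RNA, Tlr9 and Tlr3, showed the largest differences upwards, while Tlr13 showed the largest downwards. The WT comparison gave 4 members higher and 3 lower of 10, where 84.8% of the 12813 genes tested passed the same fold (21.7% higher and 63% lower). Tlr9 had 547 counts in the untreated and 6501 in the LPS-treated library, or 20.9 and 261 CPM, an 11.98-fold difference (log2 3.58, limits 3.52 to 3.77). Tlr3 went from 19.9 to 92.1 CPM (log2 2.15, limits 2.07 to 2.35). Tlr9 and Tlr3 lay at percentiles 98.6 and 96.1 of all genes tested. Of the lipopeptide co-receptors, Tlr1 was 1.98-fold higher (61.2 to 122.4 CPM) and Tlr6 1.505-fold higher (22.9 to 34.9 CPM), while their partner Tlr2 stayed at 23.9 and 27.0 CPM.

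Lower after LPS were Tlr13, Tlr4 and Tlr8. Tlr13, the sensor of bacterial ribosomal RNA, had 13207 counts in the untreated and 2523 in the LPS-treated WT library, or 504 and 101 CPM, a 4.93-fold difference (log2 -2.30, limits -2.38 to -2.25). Tlr4, the LPS receptor itself, went from 80.7 to 37.2 CPM (log2 -1.10, limits -1.23 to -1.003), and Tlr8 from 274 to 147 CPM (log2 -0.89, limits -0.95 to -0.84). Cd14 and Tlr7 passed in neither direction, at 223 and 252 CPM and at 114 and 114 CPM. Tlr9 and Tlr3 were the 2 members at least 2-fold higher and Tlr13 and Tlr4 the 2 lower, where 43.3% of all genes differed by 2-fold (10.5% higher and 32.8% lower).

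The scaling matters for LPS more than for any other comparison in BMDMs. Scaled to the library total, the median of all genes tested was -0.58 in WT and -0.55 in cKO on the log2 scale, and with TMM scaling it was -0.10 and -0.08. The share of higher calls among all genes called moved from 25.6% to 45.0% in WT and from 29.3% to 46.7% in cKO. Cell markers moved with LPS as well. Bst2 and Xcr1, the dendritic cell markers tested, were higher in WT (log2 1.48 and 2.02) and cKO (1.82 and 2.65), and Bst2 alone went from 516 to 1445 CPM in WT and from 307 to 1086 in cKO, of list sums of 517 and 1453 and of 308 and 1094 CPM. Flt3 had 0 counts in these 4 libraries. Cd4 was lower in WT (762 and 406 counts, log2 -0.80) and cKO (576 and 311 counts, log2 -0.89), and S100a8 was higher in WT (32 and 70 counts, log2 0.78). Of the macrophage markers Csf1r and Cd68 were lower and Fcgr1 and Mertk higher in both genotypes, with Adgre1 higher in cKO too, and the part of these in the members' values was not tested. Relative to the median of all genes, Tlr4 was less far below untreated cells (log2 -0.52 with TMM in WT) and Tlr2, Cd14 and Tlr7 were higher (0.73, 0.76 and 0.58). Tlr9, Tlr3, Tlr1 and Tlr6 were higher and Tlr13 and Tlr8 lower in WT cells under both scalings.

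In Zmynd8 cKO cells, LPS gave 6 members higher and 3 lower of 10, where 85.5% of the 12666 genes tested passed the fold (25% higher and 60.5% lower). Each genotype has its own untreated library, so these values share none with the WT ones. Tlr9 went from 6.81 to 311 CPM, a 39.9-fold difference (log2 5.32, limits 5.28 to 5.75), and Tlr3 from 7.48 to 88.5 CPM (log2 3.40, limits 3.34 to 3.80). In both genes the libraries after LPS lay close together and the untreated ones did not. Tlr1 and Tlr6 were 2.77-fold and 2.38-fold higher, and Tlr7 was 2.15-fold higher (68.4 to 148 CPM, limits 1.03 to 1.201 on the log2 scale). Tlr8 differed in direction from WT cells, at 126 and 180.4 CPM (log2 0.51, limits 0.45 to 0.59). Tlr13 was 3.27-fold lower and Cd14 2.38-fold lower (452 to 189 CPM, log2 -1.25, limits -1.31 to -1.21). Tlr4 was lower at library-total scaling (51.2 to 35.4 CPM, log2 -0.52), but not with TMM, where its value was 0.03. At 2-fold, 5 members were higher and 2 lower, where 46% of all genes differed that much (13.2% higher and 32.8% lower). The difference between the genotypes' responses was not tested, since a fit that holds it leaves no residual degrees of freedom.

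Over both genotypes, the additive fit called 7 of the 10 members for LPS at an adjusted p under 0.05, 6 of them higher and 1 lower, where 50.8% of all genes were called (25.1% higher and 25.7% lower). On its TMM scale Tlr9 rose by 5.12 (log2, adjusted p = 0.000515) and Tlr3 by 3.47 (0.000642). Tlr1 rose by 1.89 (adjusted p = 0.000815), Tlr6 by 1.60 (0.00128), Tlr7 by 1.19 (0.0143) and Tlr2 by 0.74 (0.0332), and Tlr13 fell by 1.36 (0.00317). These are adjusted p-values of edgeR's quasi-likelihood test over all genes. Tlr8, Tlr4 and Cd14 did not pass, with log2 values of 0.46, -0.17 and 0.17. Of the 7, Tlr7 and Tlr2 did not pass at library-total scaling (log2 0.53 and 0.08), where Tlr4 did (-0.82).

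**Figure D3:**
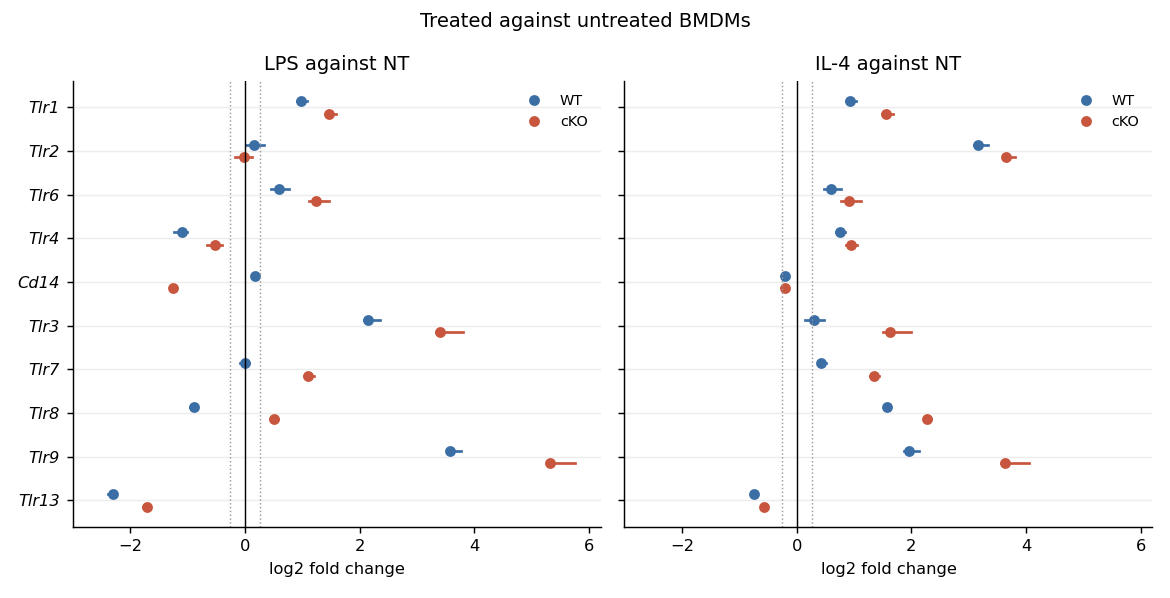
Log2 fold change of each gene for LPS against NT (left) and IL-4 against NT (right) in WT (blue) and Zmynd8 cKO (red) BMDMs, on CPM + 1; bars are 95% exact counting limits on the read ratio without the pseudocount and dotted lines mark 1.2-fold. After LPS, Tlr9 is at 3.58 and 5.32 and Tlr13 at -2.30 and -1.71; after IL-4, Tlr2 is at 3.16 and 3.66.

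IL-4, the cytokine of alternative activation, gave another pattern, in which Tlr2 led, followed by Tlr9 and Tlr8. In WT cells 8 members were higher and 1 lower of 10, where 64.4% of the 13090 genes tested passed the fold (41.3% higher and 23.1% lower). Tlr2 had 627 counts when untreated and 6295 after IL-4, or 23.9 and 222 CPM, an 8.94-fold difference (log2 3.16, limits 3.09 to 3.33). Tlr9 was 3.86-fold higher (20.9 to 83.5 CPM) and Tlr8 2.97-fold higher (274 to 815 CPM). Tlr1, Tlr4, Tlr6, Tlr7 and Tlr3 were higher by 1.91, 1.69, 1.52, 1.35 and 1.23-fold. At 2-fold, Tlr2, Tlr9 and Tlr8 made 3 members higher and 0 were lower, where 16.2% of all genes passed (10% higher and 6.19% lower). Tlr13 was the only member lower by 1.2-fold, at 504 and 301 CPM (log2 -0.74, limits -0.78 to -0.71), and Cd14 differed by log2 -0.20, from 223 to 195 CPM.

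In cKO cells IL-4 gave the same counts, with 8 members higher and 1 lower, where 70.9% of the 12966 genes tested passed (44.7% higher and 26.2% lower). Tlr2 was 12.6-fold higher (30.2 to 393 CPM, log2 3.66, limits 3.59 to 3.81), Tlr9 12.3-fold (6.81 to 95.2 CPM) and Tlr8 4.85-fold (126 to 615 CPM). Tlr3 was 3.07-fold and Tlr1 2.96-fold higher, Tlr7 2.54-fold, Tlr4 1.93-fold and Tlr6 1.87-fold. At 2-fold 6 members were higher and 0 lower, where 21.1% of all genes passed (15% higher and 6.09% lower). Tlr13 was 1.48-fold lower and Cd14 differed by log2 -0.20. With TMM the median of all genes moved from 0.15 to -0.01 in WT and from 0.17 to -0.03 in cKO, and the share of higher calls from 64.1% to 49.4% and from 63.1% to 48.8%. In that scaling Cd14 passed the fold downwards (-0.37 and -0.43) and Tlr3 and Tlr7 did not pass in WT cells (0.13 and 0.26).

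The neutrophil genes moved with the IL-4 libraries too, all 5 being higher than in untreated cells of both genotypes, with S100a9 at 121.6 and 185 CPM with IL-4 and at 0.496 and 0.531 CPM when untreated, WT first. Of the macrophage markers Csf1r and Adgre1 were higher and Cd68 and Fcgr1 lower with IL-4 in both genotypes, and Cd4 was lower in both. Mertk was higher in cKO only (913 and 1746 counts, log2 0.71). Among the 4 dendritic cell markers tested, Flt3 (0 and 25 counts) and Zbtb46 (5 and 89) were higher and Xcr1 lower (log2 -0.41) with IL-4 in WT. All 4 were higher in cKO, Bst2 by log2 0.77, Xcr1 with 12 and 32 counts, Flt3 with 0 and 24 and Zbtb46 with 0 and 61, and the list, again nearly all Bst2, summed to 517 and 485 CPM in WT and to 308 and 529 in cKO, untreated first. Neutrophils also carry Tlr2 and Cd14, and the part of these transcripts in the members' values was not tested. In bulk samples, fewer cells of a type and less RNA per cell cannot be told apart.

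For IL-4 the additive fit over both genotypes called 5 of the 10 members, 4 higher and 1 lower, where 20.8% of all genes were called (10.6% higher and 10.2% lower). By edgeR's quasi-likelihood test Tlr2 rose by 3.30 (log2, adjusted p = 0.000507), Tlr9 by 2.62 (0.0109), Tlr8 by 1.72 (0.0153) and Tlr1 by 1.09 (0.0154), and Tlr13 fell by 0.83 (0.0415). Tlr4 lay just outside (log2 0.68, adjusted p = 0.0518 by the same test), and Tlr6, Tlr7, Tlr3 and Cd14 did not pass either, with log2 values of 0.60, 0.69, 0.79 and -0.38. At library-total scaling Tlr13 did not pass (-0.66) while Tlr4 and Tlr6 did (0.85 and 0.77), and with DESeq2 Tlr4 passed as well. Both IL-4 libraries also differ from the rest in sample number (62 and 63 beside 91 to 94). Their neutrophil genes summed to 352 and 474 CPM in WT and cKO, far above the other libraries. An effect of IL-4 and these differences cannot be told apart in this fit.

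Whether loss of Zmynd8 altered the receptors was asked over all treatments and within each. Over all 3, the additive fit called none of the 10 members and 0% of the 13074 genes by edgeR's quasi-likelihood test, with 403 genes at an unadjusted p under 0.05, while DESeq2 called 40 genes and again no member. On simulated counts with purely additive genotype changes, the edgeR fit recovered 60% of the 2-fold and 85% of the 4-fold ones. A lack of calls therefore does not show that the genotypes are equal. The members' log2 values lay between -0.46 (Tlr3) and 0.54 (Cd14), each with an adjusted p of 0.999 in the edgeR test. Tlr4, at log2 -0.41, had an unadjusted p of 0.0405 in that edgeR fit. On CPM + 1 it differed by log2 -0.65 in untreated and -0.46 in IL-4-treated cells, while after LPS its -0.07 had limits that include equality and stood at 0.0626 on deposited TPM. The differences between genotypes that follow are thus each a difference between 2 libraries, and they do not pass as an effect shared by the treatments. More members, and more of all genes, passed the fold in untreated cells than after LPS or IL-4. Tlr1 and Tlr2 nevertheless differed most after IL-4 (log2 0.39 and 0.82), and Tlr6 and Tlr13 after LPS (0.35 and 0.30). Of the 10 members 7 were lower and 2 higher in untreated cKO cells, where 54% of the 12463 genes tested passed the fold (29% lower and 25% higher). Of the 5 endosomal receptors all were lower. Tlr9 had 547 counts in WT and 154 in cKO, or 20.9 and 6.81 CPM (log2 -1.48, limits -1.88 to -1.35). Tlr3 had 522 and 169 counts, or 19.9 and 7.48 CPM (log2 -1.30, limits -1.67 to -1.16), and Tlr8 had 7182 and 2849 counts, or 274 and 126 CPM (log2 -1.11, limits -1.18 to -1.06). These were 2.799-fold, 2.47-fold and 2.16-fold lower and were 3 of the 2.86% of all genes that were lower by at least 2-fold (3.83% in either direction). Tlr7 was 1.66-fold lower (114 and 68.4 CPM) and Tlr13 1.22-fold lower (504 and 412 CPM), a difference that lay just inside the fold and just outside it with TMM (log2 -0.26).

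At the surface, Tlr4 was 1.57-fold lower in untreated cKO cells (80.7 and 51.2 CPM, log2 -0.65, limits -0.76 to -0.55) and Tlr6 1.23-fold lower (22.9 and 18.3 CPM). Cd14 went the other way. It had 5848 counts in WT and 10205 in cKO, or 223 and 452 CPM, a 2.02-fold difference (log2 1.01, limits 0.97 to 1.06) at percentile 99.1 of all genes tested. Tlr2 was 1.25-fold higher (23.9 and 30.2 CPM), and Tlr1 did not reach the fold (log2 -0.24). On deposited TPM the calls of some members differed. There Tlr2 did not pass (12.1 and 12.7 TPM), Tlr1 did (log2 -0.49), Tlr6 stood at -0.94 and Cd14 at 0.75, which is under 2-fold. Of the 5 macrophage markers Adgre1, Fcgr1 and Mertk were lower and Cd68 higher in the same comparison. Both dendritic cell markers tested were lower too, Bst2 by log2 -0.75 (limits -0.79 to -0.71) and Xcr1 by -0.41 (limits -2.07 to 0.07), and that list, nearly all of it Bst2, summed to 517 and 308 CPM. Among the neutrophil genes S100a8 was higher (32 and 39 counts, log2 0.30, limits -0.21 to 1.22). Their part in the members' values was not tested.

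**Figure D4:**
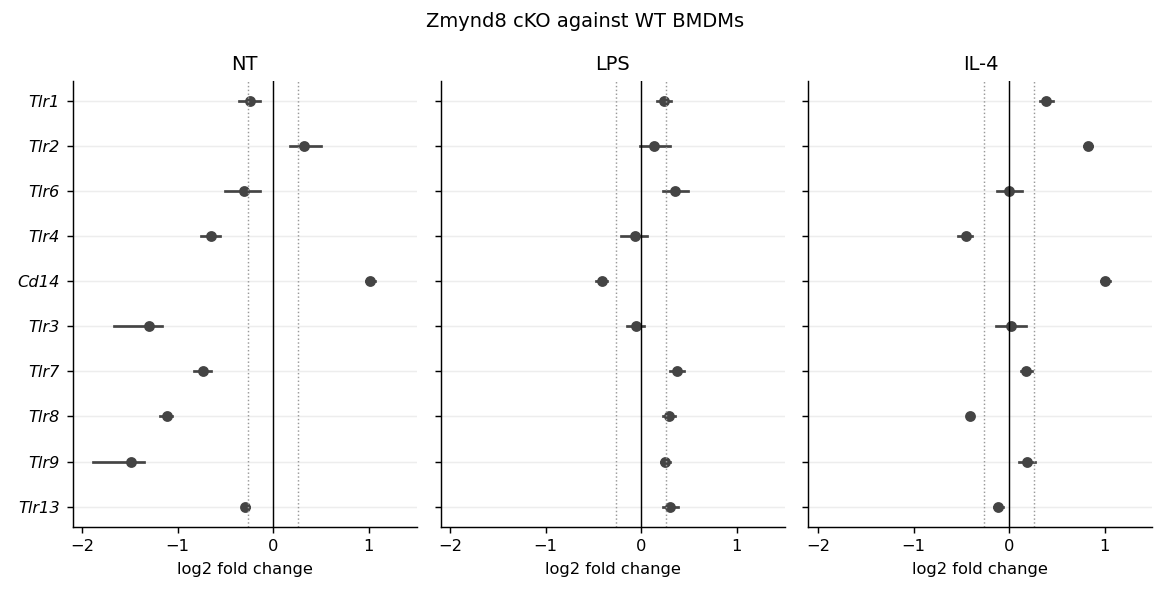
Log2 fold change of each gene in Zmynd8 cKO against WT BMDMs when untreated (NT), after LPS and after IL-4, on CPM + 1; bars are 95% exact counting limits on the read ratio without the pseudocount and dotted lines mark 1.2-fold. The 5 endosomal receptors lie between -1.48 and -0.29 when untreated and between -0.06 and 0.37 after LPS, and Cd14 lies at 1.01, -0.42 and 1.01.

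After LPS the genotypes lay closer together. Of the 10 members 4 were higher and 1 lower in cKO, where 35.9% of the 12386 genes tested passed (22.6% higher and 13.3% lower), and no member differed by 2-fold, where 0.904% of all genes did (0.573% higher and 0.331% lower). Tlr7 was 1.29-fold higher (114 and 148 CPM, log2 0.37, limits 0.30 to 0.45), Tlr6 1.28-fold, Tlr13 1.23-fold and Tlr8 1.22-fold. Cd14 was 1.33-fold lower (252 and 189 CPM, log2 -0.42, limits -0.47 to -0.36). Tlr3, Tlr4 and Tlr2 had counting limits that include equality, with log2 values of -0.06, -0.07 and 0.14. Tlr9 stood at 261 and 311 CPM (log2 0.25, limits 0.20 to 0.30), just under the fold. With TMM Tlr8 stood at 0.25 and fell short of the fold. With median-ratio scaling Tlr8 (0.24) and Tlr13 (0.25) fell short of it, and the share of higher calls over all genes moved from 62.8% to 51.4%. On deposited TPM Tlr7 fell short of the fold (0.198) and Tlr9 passed it (0.334). Of the 5 macrophage markers Adgre1 was higher in LPS-treated cKO cells (log2 0.56, limits 0.53 to 0.58) and none was lower. Bst2 was lower among the 3 dendritic cell markers tested (log2 -0.41, limits -0.44 to -0.39), a list that summed to 1453 and 1094 CPM and is nearly all Bst2, and so were S100a8 (70 and 41 counts), the 1 neutrophil gene tested, and the T cell marker Cd4 (406 and 311 counts). Their part in the members' values was not tested.

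After IL-4, Cd14 and Tlr2 were again higher in cKO and Tlr4 and Tlr8 lower. Of the 10 members 3 were higher and 2 lower, where 30.7% of the 13245 genes tested passed (17.3% higher and 13.4% lower). Cd14 had 195 CPM in WT and 392 in cKO, a 2.01-fold difference (log2 1.01, limits 0.96 to 1.06), and Tlr2 222 and 393 CPM, a 1.77-fold difference (log2 0.82, limits 0.78 to 0.87). Both lay high among all genes, at percentiles 98.5 and 97.5. Cd14 alone passed 2-fold, where 1.97% of all genes did (1.56% higher and 0.408% lower). Of the 5 neutrophil genes S100a8, S100a9 and Ngp were also higher in cKO here and none was lower. Adgre1 and Xcr1 were higher, and Csf1r, Mertk, Zbtb46 and Cd4 lower, and the part of these markers was not tested. Tlr1 was 1.31-fold higher (118 and 154 CPM). Tlr4 was 1.37-fold lower (137 and 99.5 CPM, log2 -0.46, limits -0.53 to -0.39) and Tlr8 1.32-fold lower (815 and 615 CPM). Tlr6 and Tlr3 had limits that include equality, at 35.2 and 35.2 CPM and at 24.7 and 25.1 CPM, although on deposited TPM Tlr6 passed the fold upwards (25.17 and 34.01 TPM, log2 0.42). Each of these comparisons uses the same libraries as the treatment comparisons above and is not independent of them.

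The order of the 6 libraries for Tlr8 was close to that for Xist, the RNA of the inactive X chromosome of females, which was looked at after the values of X-linked members were seen. Xist stood at 740 and 323 CPM in untreated WT and cKO cells, at 246 and 429 in LPS-treated ones and at 1108 and 1057 with IL-4, while Tlr8 stood at 274 and 126, 147 and 180.4, and 815 and 615. The IL-4-treated WT, IL-4-treated cKO and untreated WT libraries, which led in that order, also led for genes off the X chromosome. They did so for Tlr4 (137, 99.5 and 80.7 CPM) and Csf1r (4702, 3847 and 1731 CPM). The other X-linked members, Tlr7 and Tlr13, were also lower in untreated cKO cells (log2 -0.73 and -0.29) and higher in LPS-treated ones (0.37 and 0.30), and so was Tlr6, which is not X-linked (-0.30 and 0.35). By the study's methods the controls were sex-matched, the make-up of each mixed library is not given, and the part of sex in these values was not tested.

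Sequence before the annotated start was read for the members from a set of RefSeq starts (GRCm38.p6). In the set used here 7 of the 10 had an entry and Tlr4, Tlr7 and Cd14 had none. These 7 had 9 entries, since Tlr1 and Tlr6 have 2 starts each. The 250 bases before each start were searched on both strands for 4 motifs: the interferon-stimulated response element (ISRE); GAGGAAG, a form of the PU.1 site; TGANTCA, the AP-1 site; and the NF-kappaB consensus. Over all 32851 entries these occurred in 2.98%, 10.6%, 6.75% and 7.25%. Tlr9 and Tlr8 are shown in full because they were, with Tlr3, the receptors lower by 2-fold in untreated cKO cells and because their windows hold no annotated exon. Capitals mark motif matches.

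Tlr9, chr9:106222348-106222597, plus strand: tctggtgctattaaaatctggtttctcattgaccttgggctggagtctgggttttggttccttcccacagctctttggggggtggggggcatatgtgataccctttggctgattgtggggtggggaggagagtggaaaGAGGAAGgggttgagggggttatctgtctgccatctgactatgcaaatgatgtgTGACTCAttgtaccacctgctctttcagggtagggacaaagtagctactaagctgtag
Tlr8, chrX:167264330-167264579, minus strand: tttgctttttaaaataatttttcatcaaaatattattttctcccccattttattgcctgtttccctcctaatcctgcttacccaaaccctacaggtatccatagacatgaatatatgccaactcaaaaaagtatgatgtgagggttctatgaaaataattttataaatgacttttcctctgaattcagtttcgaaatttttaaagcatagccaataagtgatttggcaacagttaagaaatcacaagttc

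Tlr9 thus holds 1 match to GAGGAAG, 112 bases before the start, and 1 to TGANTCA, 58 bases before it, and the Tlr8 window holds none of the 4. For the remaining members with a match, the 30 bases around it are shown, to set receptors that were higher after LPS or IL-4 beside those that were lower.

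Tlr1, chr5:64933563-64933592, minus strand: attaaatgttgGAGGAAGtaggagcttgaa
Tlr13, chrX:106143181-106143210, plus strand: aaaaaagagaaGAGGAAGgaaatgtctcat
Tlr2, chr3:83841762-83841791, minus strand: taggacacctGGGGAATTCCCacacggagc
Tlr3, chr8:45410572-45410601, minus strand: agttgtttctGGGAGTTTCCtgcttttgag
Tlr6, chr5:64959263-64959292, minus strand: tgactattctTTTCTCTTTCACTTTCtgtt

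GAGGAAG thus occurs in Tlr1, Tlr9 and Tlr13, of which Tlr1 and Tlr9 were higher and Tlr13 lower after LPS and after IL-4. The Tlr1 start with that match lies 31 bases inside the gene as given above. The NF-kappaB consensus occurs in Tlr2 (2 overlapping matches) and in Tlr3, of which Tlr2 differed little after LPS at library-total scaling and Tlr3 was 4.45-fold higher in WT cells. Their starts lie 216 (Tlr2) and 1569 (Tlr3) bases inside the genes as given above, so these matches are within the genes. Annotated exons cover 159 and 178 of the 250 bases. Tlr6 holds 2 overlapping matches to the ISRE, read on the other strand, before a start that lies 11974 bases inside the gene as given above. The second start of Tlr6 and that of Tlr1 had no match to any of the 4 motifs. A match describes the letters of the window only.

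The molecules that work with these receptors were followed by name. Ly96, the LPS-binding partner of Tlr4, stood between 8.17 and 11.4 CPM in the 6 BMDM libraries. Per transcript length it had 31.03 and 32.45 TPM in untreated WT and cKO cells beside 33.43 and 18.84 for Tlr4, and 41.31 and 40.04 TPM in LPS-treated ones beside 14.57 and 15.26. It was higher in untreated cKO than WT cells (log2 0.28, limits 0.04 to 0.59) and in LPS-treated than untreated WT cells (log2 0.44, limits 0.22 to 0.74). Cd180, a Toll-like receptor relative that pairs with Ly86, stood at 728 and 443 CPM in untreated WT and cKO cells, at 495 and 481 in LPS-treated ones and at 142 and 189.5 with IL-4. It was lower in untreated cKO cells (log2 -0.72, limits -0.75 to -0.68) and higher in IL-4-treated ones (log2 0.41, limits 0.36 to 0.48). Ly86 ranged from 97.5 to 159 CPM. Unc93b1, which carries the endosomal receptors to their compartment, stood at 628 and 499 CPM when untreated (log2 -0.33 in cKO against WT, limits -0.37 to -0.30), at 652 and 644 in LPS-treated cells and at 898 and 833 with IL-4.

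Of the 42 other genes of the pathway that were listed, 37 passed the count filter in untreated cells, and of these 17 were lower and 5 higher in cKO. Signalling genes accounted for 10 of the lower ones, among them the adaptors Myd88, Tirap and Ticam2, and none of the 16 was higher. Cxcl10, Nos2 and Tirap had the largest differences (log2 -1.45, -0.89 and -0.80). After LPS 17 of 40 were higher and 2 lower in cKO, led by Il12b (216 and 647 counts, log2 1.56), Il1b (1626 and 4137 counts, log2 1.42) and the scavenger receptor Cd36 (6459 and 9719 counts, log2 0.68). With IL-4, cKO had 12 higher and 3 lower of 38, and the higher ones included all 7 response genes tested, led by Cxcl10 (log2 2.09), Nos2 (1.87) and Tnf (1.71). The percentages of all genes given above for each comparison are the background of these counts.

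The response genes had a median log2 of 3.50 in WT and 4.63 in cKO cells after LPS, beside 0.17 and 0.81 for the 10 members. All 8 response genes were higher in both, with Nos2, the inducible nitric oxide synthase, at log2 9.58 in WT and 10.46 in cKO and Cxcl10 at 6.76 and 8.31. Il1b stood at log2 4.67 and 6.2. Of the 42 listed genes 14 of 41 tested were higher and 17 lower in WT, and 22 higher and 12 lower of 42 in cKO. With IL-4, WT had 20 higher and 10 lower of 38, and cKO 27 higher and 6 lower. Cd180 was among the 3 largest in WT (19086 and 4030 counts, log2 -2.35), beside Il1b (2.45) and Nos2 (-2.12). Il1b, Cxcl10 and Nfkbia led in cKO (4.11, 3.35 and 2.43).

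Genes whose levels were most like a member's over the 6 BMDM libraries were ranked by Pearson's r of log2(CPM + 1), as a description over libraries that share their treatments. For Cd14 these were Vdac3, Trdmt1 and Mcat (r = 0.972, 0.961 and 0.957), and 9 of 9932 genes reached an r of at least 0.9. Tlr4 had 1795 such genes, led by Pnrc2, Snx19 and Trp53inp1 (0.998, 0.998 and 0.997), and Tlr9 had 455, led by Pcsk7, F830016B08Rik and Gm16675 (0.998, 0.998 and 0.997). Cd14 was therefore the member of the 3 with the fewest close matches.

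The Zmynd8 lines set the D/E-A mutant, in which aspartate and glutamate residues were changed to alanine, beside WT Zmynd8. Both are labelled as Zmynd8 knockout cells with a rescue, but the libraries differ in cell markers too, as given below. Tlr9, Tlr8, Tlr7 and Tlr3 had the widest differences among the members, all upwards. In the D/E-A library 7 of the 10 members were higher and 1 lower, where 72.6% of the 12771 genes tested passed the fold (36.7% higher and 35.9% lower). Tlr9 had 553 reads with WT Zmynd8 and 2082 with D/E-A, which on the deposited size-factor scale is 540.3 and 2131 and a 3.94-fold difference (log2 1.98, limits 1.84 to 2.12). Tlr8 had 603 and 1909 reads (log2 1.73, limits 1.60 to 1.86), Tlr7 1898 and 4069 (log2 1.17, limits 1.09 to 1.25) and Tlr3 1374 and 2449 (log2 0.90, limits 0.81 to 1.00). Tlr9 and Tlr8 lay at percentiles 99.8 and 99.6, and Tlr9, Tlr8 and Tlr7 were the members 2-fold higher, as 6.94% of all genes were. Tlr1, Tlr4 and Tlr6 were 1.497-fold, 1.35-fold and 1.31-fold higher, and Tlr2 was lower (6030 and 4784 reads, log2 -0.27, limits -0.32 to -0.21). Cd14 (12674 and 13726 reads) and Tlr13 (600 and 667 reads) did not reach the fold.

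The library with no rescue was compared with the same WT Zmynd8 library, so this comparison is not independent of the one before. Of the 10 members 6 were higher and none lower, where 70.3% of the 21302 genes tested passed (33.8% higher and 36.5% lower). Tlr9 had 1597 reads (log2 1.41, limits 1.27 to 1.55), Tlr8 1392 (log2 1.08, limits 0.95 to 1.23), Tlr7 3492 (log2 0.76, limits 0.68 to 0.84) and Tlr3 2275 (log2 0.61, limits 0.51 to 0.70). Tlr1 and Tlr4 were 1.28-fold and 1.27-fold higher. Tlr2 had limits that include equality (6030 and 6677 reads, log2 0.03), and Tlr6, Cd14 and Tlr13 lay below the fold. Of the 5 endosomal receptors Tlr9, Tlr8, Tlr7 and Tlr3 passed the fold upwards against the shared WT Zmynd8 library with D/E-A and with no rescue, and Tlr13 passed in neither. Tlr9 stood at 30.1, 75.9 and 116 RPM in the libraries with WT Zmynd8, no rescue and D/E-A.

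Markers of cell identity moved with these libraries. All 6 macrophage markers were higher with D/E-A and with no rescue than with WT Zmynd8, and the list summed to 2184, 2943 and 3690 RPM with WT Zmynd8, no rescue and D/E-A. The neutrophil genes went the other way, from 10125 to 6745 and 4295.3 RPM, with all 5 lower in D/E-A and 4 of 5 lower with no rescue. All 5 dendritic cell markers were lower with D/E-A, and the list summed to 1240 RPM with WT Zmynd8, 973 with no rescue and 658 with D/E-A, where 1 marker was higher and 2 lower with no rescue. Bst2 carries those sums, with 22152, 19689 and 11372 reads in that order, while no other marker of the list had more than 526. Of the 4 B cell markers 2 were higher with D/E-A, and 1 was higher and 3 lower with no rescue. Of the 3 T cell markers none passed with D/E-A, while Cd4 was higher and Cd3e and Cd3d lower with no rescue, at a summed 10.1 to 10.6 RPM. The part of these cells in the members' values was not tested.

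Of the partner molecules in these lines, Cd180 was higher with D/E-A (786 and 1717 reads, log2 1.19) and with no rescue (1627 reads, log2 0.93). Ly96 had 264, 426 and 324 reads with WT Zmynd8, no rescue and D/E-A, and Unc93b1 11784, 14650 and 12535. Among the 42 listed pathway genes 17 of 39 were higher and 9 lower with D/E-A, and 20 higher and 7 lower of 42 with no rescue.

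**Figure D5:**
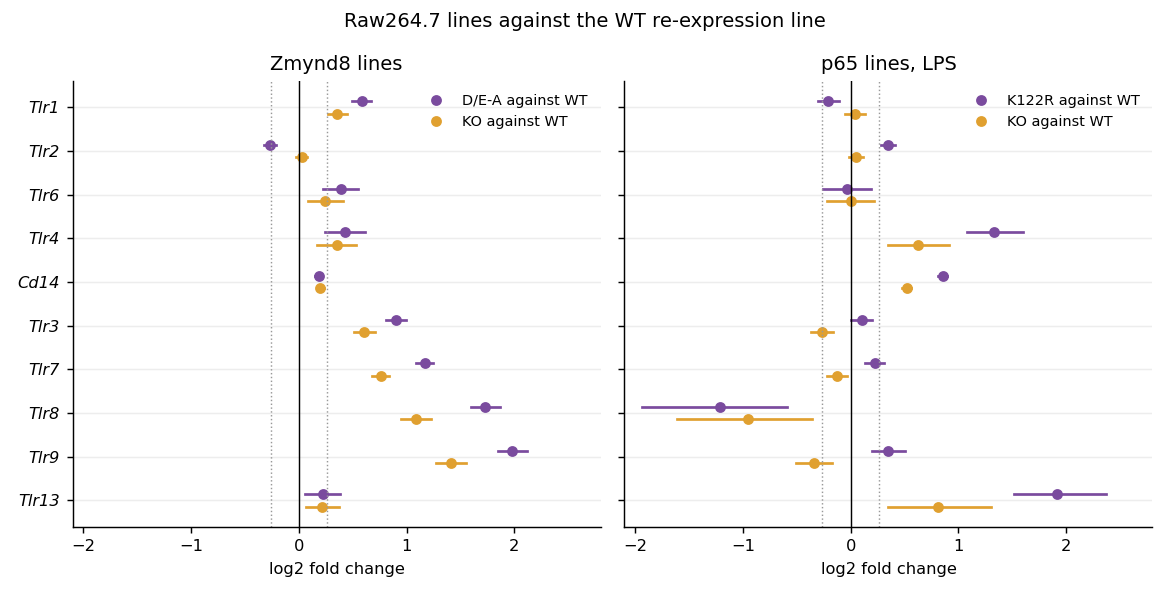
Log2 fold change of each gene in the Zmynd8 lines (left, against the line with WT Zmynd8) and in the LPS-treated p65 lines (right, against the line with WT p65), on deposited value + 1; bars are 95% exact counting limits on the read ratio and dotted lines mark 1.2-fold. On the left, Tlr9 is at 1.98 for D/E-A and 1.41 for KO; on the right, Tlr13 is at 1.91 for K122R and 0.81 for KO and Tlr8 at -1.22 and -0.95.

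In the LPS-treated p65 lines, Cd14, Tlr4 and Tlr13 were the members that differed most upwards with K122R. These libraries differ in more than the substitution. Rela had 1601 reads with WT p65 and 5850 with K122R (log2 1.92), and Zmynd8 1826 and 1070 (log2 -0.72). The part of either in the members' values was not tested. In the K122R library 5 members were higher and 1 lower, where 63.3% of the 19670 genes tested passed the fold (30.8% higher and 32.5% lower). Cd14 had 7987 reads with WT p65 and 13890 with K122R (log2 0.85, limits 0.81 to 0.89). Tlr4 had 175 and 424 reads (log2 1.33, limits 1.07 to 1.59), and Tlr13 61 and 224 (log2 1.91, limits 1.52 to 2.36). Tlr2 had 3479 and 4265 reads and Tlr9 660 and 809, both log2 0.35. Tlr8 was the member lower, with 69 and 28 reads (log2 -1.22, limits -1.93 to -0.59). At such depth the size of the Tlr8 difference is known only within those limits. Scaling to the library total moved the median of all genes from 0.01 to -0.14 and the share of higher calls from 48.6% to 37.0%. At that scaling 3 members were higher and 2 lower, and the share of all genes that passed is not given here.

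Without p65 rescue, 3 members were higher and 3 lower against the same WT p65 library, where 51.9% of the 19879 genes tested passed (26.3% higher and 25.7% lower). Higher were Tlr13 with 104 reads (log2 0.81, limits 0.35 to 1.30), Tlr4 with 261 (log2 0.62, limits 0.34 to 0.91) and Cd14 with 11083 (log2 0.52, limits 0.48 to 0.56), and lower were Tlr8 with 34 (log2 -0.95, limits -1.61 to -0.36), Tlr9 with 504 (log2 -0.34, limits -0.51 to -0.17) and Tlr3 with 1322 (log2 -0.27, limits -0.37 to -0.16). Tlr1, Tlr2 and Tlr6 had limits that include equality, with log2 values of 0.04, 0.05 and 0.00. None of the 10 members differed by 2-fold, as 15.8% of all genes did.

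Tlr9 was thus higher with K122R on the deposited scale only (log2 0.35, and 0.21 at library-total scaling, under the fold) and lower without rescue. It stood at 42.1 RPM with WT p65, 48.6 with K122R and 33.3 with no rescue. Both comparisons share the WT p65 library. Of the 6 macrophage markers 1 was higher and 2 lower with K122R and 1 higher and 1 lower with no rescue. Of the 4 dendritic cell markers Xcr1 (146 and 319 reads) and Bst2 (log2 0.46) were higher and Siglech lower (73 and 38 reads) with K122R, and Zbtb46 and Xcr1 were higher (log2 0.57 and 0.65) and Siglech lower (-0.28) with no rescue. That list summed to 482 RPM with WT p65, 604 with K122R and 534 with no rescue, and Bst2 held 7240, 9610 and 7661 of its reads. Of the 3 B cell markers 1 was higher and 1 lower with K122R and 1 higher and 2 lower with no rescue, at a summed 5.42 to 8.17 RPM. Neutrophil and T cell markers summed to at most 0.319 and 0.192 RPM. The part of these markers was not tested. Of the listed pathway genes 13 of 39 were higher and 7 lower with K122R, and 5 of 38 higher and 9 lower with no rescue. Unc93b1 had 5540, 6936 and 5860 reads with WT p65, K122R and no rescue, and Ly96 had 217, 158 and 190.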

How the data were processed

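RNA was measured in 12 libraries of 1 condition each; 35 other samples of the series were not analysed here. Per the study's methods, poly(A) libraries were read as single 50-base reads and aligned to mm10 with TopHat, and the submitters' processing notes name Bowtie 0.12.2 and CASAVA 1.4. For BMDMs the authors deposited estimated counts and TPM per gene (the counter is not given in the sources used here); counts were rounded to whole numbers. For Raw264.7 lines the deposited values are a normalized signal, gene counts divided by a size factor within each table, from which whole reads were recovered for 99.996% to 100% of genes (within 0.05 of a read). The design had foreseen counts or normalized values for these tables, and the signal was compared as log2(value + 1). The authors' own fold changes and p-values stand in all tables and were not used, nor were 2 columns of per-sample values that no label names.

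Log2 fold changes were taken on CPM + 1 (BMDMs, mean count of at least 10) or on deposited value + 1 (Raw264.7, mean value of at least 1, within 1 table) and described as higher or lower from 1.2-fold. The 95% Clopper-Pearson limits use reads only. Conditions were tested in BMDMs only, in an additive fit of genotype and treatment over the 6 libraries (edgeR's quasi-likelihood test, TMM scaling, mean count of at least 10, Benjamini-Hochberg adjustment; DESeq2 as alternative), added after the values were seen. The 3 lines of a set have no residual degrees of freedom. The steps were tested on simulated data. Genes named are the 10 members, and of the 42 pathway genes those with the 3 largest differences per BMDM comparison (mean of at least 100 counts) and Ly96, Cd180, Ly86 and Unc93b1; Xist, Rela, Zmynd8, Gm45542 and the genes given as examples of a list were named after their values were seen. The members and lists were chosen with earlier results of these data known. Alternatives were a pseudocount of 0.1, no filter or a stricter one (50 counts; a value of 5), TMM and median-ratio scaling (edgeR 4.0.16, DESeq2 1.42.0), deposited TPM, library totals, a 2-fold rule, an exact binomial test on reads and edgeR's exact test with an assumed coefficient of variation of 0.2.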

Additional observations from a re-analysis of the deposited data

Results flagged for a closer look

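The members below were higher in one group and lower in another under the same contrast; each rests on 1 library per condition, and the difference was not tested, since a fit with genotype, treatment and their interaction leaves no residual degrees of freedom. The values are differences between 2 log2 fold changes. For cKO against WT, from untreated cells to LPS, Tlr8 moved by 1.41 (from -1.11 to 0.29), Tlr7 by 1.10 (from -0.73 to 0.37), Tlr6 by 0.66 (from -0.30 to 0.35) and Tlr13 by 0.59 (from -0.29 to 0.30), all 4 being lower in untreated and higher in LPS-treated cKO cells. The calls of Tlr8, Tlr13 and Tlr7 depend on the scaling. On deposited TPM, Tlr7 stood at 0.198 after LPS. After LPS, Tlr8 stood at 0.25 with TMM and 0.24 with median-ratio scaling and Tlr13 at 0.25 with median-ratio scaling, and in untreated cells Tlr13 stood at -0.26 with TMM, all short of 1.2-fold. Cd14 went the opposite way, by -1.43 (from 1.01 to -0.42). From LPS to IL-4, Cd14 moved by 1.42 (from -0.42 to 1.01) and Tlr8 by -0.70 (from 0.29 to -0.41). For LPS against untreated cells, Tlr8 was lower in WT (-0.89) and higher in cKO (0.51), a difference of 1.41 that is made of the same 4 libraries as the first value.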

How the results depend on the processing

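No paired analysis was possible because each condition holds 1 library and so no replicate number to pair by, and no replicate could be left out; WT and cKO libraries of the same treatment were matched in the additive fit instead, with treatment as a term. That fit and its settings were chosen after seeing the data. For cKO against WT it called 0 genes with edgeR, also at library-total scaling, but 32 without the filter, 40 with DESeq2, and 7, 31 and 16 without the untreated, LPS and IL-4 libraries, and 0 members in each of these. For LPS and IL-4 the number of members called stayed within 1.5 times the reported number. Over the 11 comparisons, the number of members called stayed within 1.5 times the reported number with the other pseudocount, without the filter, with the stricter filter, with TMM, library-total or TPM values and with the exact binomial test on reads. Median-ratio scaling gave 3 members for cKO against WT after LPS. A 2-fold rule gave 4, 0 and 1 members for cKO against WT in untreated, LPS and IL-4 cells, 4 for LPS and 3 for IL-4 in WT, 3 for D/E-A, 2 for Zmynd8 KO, 3 for K122R and 0 for p65 KO. In the same order, 3.83%, 0.904%, 1.97%, 43.3%, 16.2%, 18.4%, 25.6%, 20% and 15.8% of all genes passed that rule. edgeR's exact test with an assumed coefficient of variation of 0.2 gave 1, 0 and 0 members for cKO against WT in untreated, LPS and IL-4 cells and 3 for IL-4 in WT. The shares of all genes called by that test and with median-ratio scaling are not given here, so these counts have no background. The log2 value of Tlr4 for LPS in cKO turned to 0.0279 with TMM and 0.0433 with median-ratio scaling. The depth limits Tlr8 and Tlr13 in the p65 lines, with 28 to 69 and 61 to 224 reads.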

Other observations

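Per transcript length, the make-up of the receptor transcripts differed between LPS-treated primary cells and the LPS-treated p65 lines. For the lines, reads were divided by the length per gene that the BMDM tables imply, the tables were normalized separately, and no test was made. Cd14 made up 38.9% and 29.1% of the summed level of the 10 genes in WT and cKO BMDMs after LPS, and between 62.9% and 72.7% in the 3 p65 lines. Tlr9 made up 16.3% and 19.4% in the BMDMs and between 1.32% and 2.11% in the lines. Tlr8 made up 7.03% and 9.33% in the BMDMs and at most 0.185% in the lines.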
